A study of Homo sapiens and Mus musculus with 36 samples.

Results

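HuH-7 cells, a human line from a hepatocellular carcinoma, were compared with and without interferon (IFN). All cells compared carried the control guide sgNeg2 and are labelled as wild type, with 2 libraries with IFN and 2 without, 4 of the 36 libraries of the series. The sources used here do not give the type of interferon, its dose or the time of exposure. A further 8 HuH-7 libraries from cells edited at DOT1L, with and without IFN, entered the statistical fit to estimate the spread. They also took part in the choice of genes tested and in the scaling, but are not part of the comparison. The 3 HuH-7 libraries treated with DMSO, the vehicle of a drug arm, carry no guide by their labels and serve below as a second set without IFN. All cells grew in DMEM with fetal bovine serum and antibiotics, and all libraries are RNA sequencing of 1 line. Nothing in the labels tells whether 2 replicates came from separate cultures, so the spread between replicates may be technical. The p-values rest on the spread estimated over the 12 guide libraries. There the 2 DOT1L guides share a group, so that spread also holds differences between guides.

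The libraries with and without IFN were of different kinds. With IFN the totals were 47594968 and 52095223 counts, against 22145025 and 22649969 counts without. Replication-dependent histone genes, whose mRNAs carry no poly(A) tail, took 0.0330% and 0.0329% of the counts with IFN, against 0.969% and 0.963% without. Small nuclear RNA genes took 0.0118% and 0.0116% with IFN, against 5.28% and 5.90% without. The DMSO libraries, at 0.0335 to 0.0344% for histone genes and 0.0170 to 0.0185% for small nuclear RNA genes, lay near the IFN libraries in both shares. For that reason only protein-coding genes were kept, histone genes were left out, and values against DMSO are set beside those against sgNeg2 cells without IFN. Since the kind of library changes wherever IFN does in the sgNeg2 comparison, the effects of IFN and of library kind cannot be told apart in it. The comparison with DMSO uses the same IFN libraries and is therefore not independent of the first. It was fitted apart, without the edited libraries, so calls in the 2 comparisons rest on unlike estimates of the spread. The 2 sets without IFN also differ in the guide and the vehicle, and no treatment time is given for DMSO.

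Interferons act through cell surface receptors whose associated Janus kinases phosphorylate STAT proteins. Type II interferon, IFN-gamma, signals through IFNGR1 and IFNGR2, JAK1 and JAK2 to STAT dimers, which bind gamma-activated sites (GAS), and its target IRF1 carries the response further. Type I and type III interferons signal through TYK2 and JAK1 to a complex with STAT2 and IRF9, which binds interferon-stimulated response elements (ISRE). In hepatocytes these pathways are known for antiviral defence and antigen presentation, and IFN-gamma for the chemokines that draw T cells.

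The 4 genes that mark an interferon response here, IRF1, CXCL10, GBP5 and CXCL9, were all higher with IFN. IRF1, a transcription factor, lies at chr5:132481609-132490798 on the minus strand (GRCh38, GENCODE gene models), and its libraries held 272 and 272 CPM with IFN, against 33.2 and 32.4 CPM without. CPM are protein-coding counts scaled to library size with TMM factors, and log2 changes are IFN minus none from edgeR's quasi-likelihood test, called at an adjusted p below 0.05. The chemokine gene CXCL10, at chr4:76021117-76023497 on the minus strand, held 338 and 333 CPM with IFN, against 4.33 and 4.12 CPM without. GBP5, which encodes a guanylate-binding GTPase, lies at chr1:89258950-89272804 on the minus strand and held 108 and 106 CPM with IFN, against 0.143 and 0.0473 CPM without. CXCL9, at chr4:76001275-76007488 on the minus strand, held 218 and 216 CPM with IFN, against 0 and 0.237 CPM without, where all of its 5 counts fell in 1 library. In each of these genes both IFN libraries lay far above both libraries without IFN. Liver genes were expressed in every library. ALB, the albumin gene, held 3331 and 3274 CPM with IFN, against 3299 and 3340 CPM without. The hepatocyte factor HNF4A held 344 and 329.8 CPM with IFN, against 390.3 and 395 CPM without. Other liver markers differed more, with log2 changes of -2.87 for APOB and -1.68 for APOA1, while AFP was not called. Hepatocyte enzyme and transporter genes were lower in 20 of 26 cases and higher in 1, beside 35.2% and 31.0% of all genes.

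Promoters of 4 genes that rose strongly, of IRF1 and of 1 classical interferon target that did not pass the test are shown because their motif content can be set beside their changes. They run from 250 bases before to 50 after the start site and come from RefSeq (GRCh38.p14, the same assembly as hg38). They are written 5′ to 3′ on the strand of the gene. Capitals mark matches to a GAS, spelled TTCNNNGAA (the same on both strands), or to an ISRE core, spelled GAAANNGAAA or, on the other strand, TTTCNNTTTC. The IRF1 promoter lies at chr5:132490724-132491023 (minus strand), that of CXCL9 at chr4:76007460-76007759 (minus), that of CXCL10 at chr4:76023448-76023747 (minus) and that of BST2, which encodes the antiviral membrane protein tetherin, at chr19:17405581-17405880 (minus). The promoter of CD274, the gene for the checkpoint ligand PD-L1, lies at chr9:5450292-5450591 (plus), and that of IFIT1, an RNA-binding antiviral protein gene, at chr10:89392373-89392672 (plus).
IRF1: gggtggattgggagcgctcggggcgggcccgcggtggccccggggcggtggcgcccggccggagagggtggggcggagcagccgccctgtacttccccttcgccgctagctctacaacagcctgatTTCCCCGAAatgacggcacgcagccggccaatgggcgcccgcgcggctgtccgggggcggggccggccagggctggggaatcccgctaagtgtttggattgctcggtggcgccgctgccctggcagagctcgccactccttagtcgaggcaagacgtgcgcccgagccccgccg
CXCL9: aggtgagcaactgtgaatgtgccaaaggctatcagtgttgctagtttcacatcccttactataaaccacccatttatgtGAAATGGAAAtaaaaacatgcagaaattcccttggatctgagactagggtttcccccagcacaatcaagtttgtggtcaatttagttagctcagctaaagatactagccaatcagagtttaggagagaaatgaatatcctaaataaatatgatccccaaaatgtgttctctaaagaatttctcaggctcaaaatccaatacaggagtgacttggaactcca
CXCL10: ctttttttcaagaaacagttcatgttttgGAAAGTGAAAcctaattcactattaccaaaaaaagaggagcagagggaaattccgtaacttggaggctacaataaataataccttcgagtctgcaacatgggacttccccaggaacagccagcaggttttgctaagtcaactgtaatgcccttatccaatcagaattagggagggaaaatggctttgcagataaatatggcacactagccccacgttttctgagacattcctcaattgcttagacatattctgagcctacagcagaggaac
BST2: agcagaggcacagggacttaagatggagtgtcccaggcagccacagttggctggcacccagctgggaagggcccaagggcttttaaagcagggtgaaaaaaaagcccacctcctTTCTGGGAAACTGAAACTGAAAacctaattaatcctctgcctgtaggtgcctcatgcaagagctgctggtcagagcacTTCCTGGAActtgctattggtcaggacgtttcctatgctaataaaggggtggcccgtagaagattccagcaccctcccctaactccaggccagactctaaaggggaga
CD274: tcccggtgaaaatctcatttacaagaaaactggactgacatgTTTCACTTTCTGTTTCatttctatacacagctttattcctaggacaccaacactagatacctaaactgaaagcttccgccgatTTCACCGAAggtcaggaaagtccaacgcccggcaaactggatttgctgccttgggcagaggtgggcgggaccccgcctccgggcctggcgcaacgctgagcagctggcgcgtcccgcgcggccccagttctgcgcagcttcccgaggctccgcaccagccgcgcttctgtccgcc
IFIT1: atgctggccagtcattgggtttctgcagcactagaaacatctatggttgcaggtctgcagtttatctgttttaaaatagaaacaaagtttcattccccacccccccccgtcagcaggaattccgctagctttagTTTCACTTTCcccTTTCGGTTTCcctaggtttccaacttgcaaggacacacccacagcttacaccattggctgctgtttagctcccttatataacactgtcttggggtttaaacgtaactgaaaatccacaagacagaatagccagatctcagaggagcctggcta
IRF1 had 1 GAS match, TTCCCCGAA, whose first base lay at -124 from the start site. CXCL9 and CXCL10 had 1 ISRE match each, at -171 and -221. BST2 had GAS matches at -136 and -58 and ISRE matches at -130 and -124, of which those at -136, -130 and -124 overlap in a row. CD274 had a GAS match at -125 and 2 overlapping ISRE matches at -208 and -202. IFIT1 had 2 ISRE matches, at -116 and -103, and its level with IFN did not pass the test. A match is a description of letters in this window and not a binding site.

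Matches to either motif were more frequent in promoters of genes far higher with IFN. Promoters were found for 11401 of the 13954 genes tested, and classes were set by the fitted change alone, whether or not it passed the test. Among 83 promoters of genes at least 16-fold higher, 13.3% held a GAS match and 16.9% an ISRE match. Among 212 promoters of genes 4- to 16-fold higher the shares were 11.8% and 12.3%. Among 7571 promoters of genes within 2-fold of no change the shares were 6.37% and 2.35%, and among 922 promoters of genes at least 4-fold lower they were 7.16% and 3.69%. All 27305 promoters of the table held a GAS match in 7.88% and an ISRE match in 3.65%. When classes were set against DMSO, 31.8% of 22 promoters at least 16-fold higher held a GAS match and 40.9% an ISRE match, against 6.36% and 2.18% of the 8973 within 2-fold. Among the 104 promoters 4- to 16-fold higher than with DMSO the shares were 9.62% and 27.9%, so that the GAS share there was near that of all promoters.

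**Figure D1:**
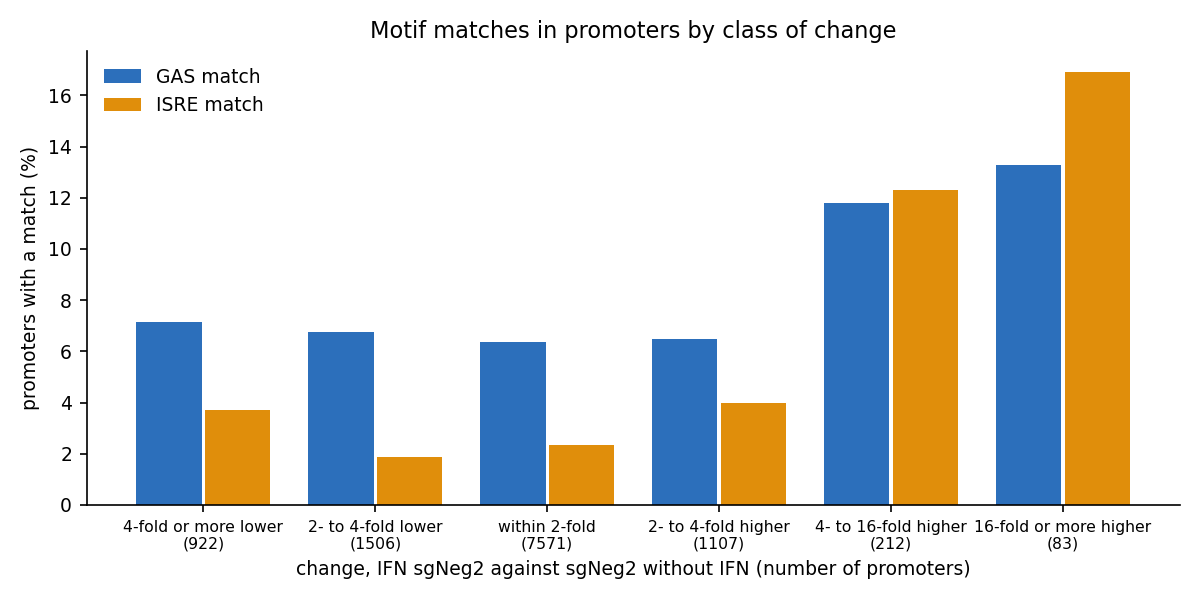
Bars give the share of promoters (percent, vertical axis) with a match to GAS (blue) or ISRE (orange) by class of fitted change between IFN sgNeg2 and sgNeg2 without IFN, from lower to higher along the horizontal axis, with the number of promoters in parentheses. The ISRE share was 16.9% in the highest class and 2.35% among genes within 2-fold.

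Most protein-coding genes differed between the sets, so a call alone says little. Of 13954 genes tested 9247 were called (66.3%), 4331 of them higher (31.0%) and 4916 lower (35.2%), with a median log2 change of -0.08. At least a 4-fold rise was called for 338 genes (2.42%) and at least a 4-fold fall for 1037 (7.43%). Against DMSO 4960 of 13199 genes were higher (37.6%) and 4872 lower (36.9%), 166 of them at least 4-fold higher (1.26%) and 260 at least 4-fold lower (1.97%). The log2 change had a Spearman correlation of 0.326 with transcript GC content and of -0.344 with transcript length over 13927 genes, and of 0.529 and -0.273 over 13174 genes against DMSO. These correlations across genes are descriptions, since genes share the same libraries. With non-coding and histone genes kept in the scaling, the median moved to 0.09, a shift of 0.17, so that small changes below are relative to the scaling on protein-coding genes.

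**Figure D2:**
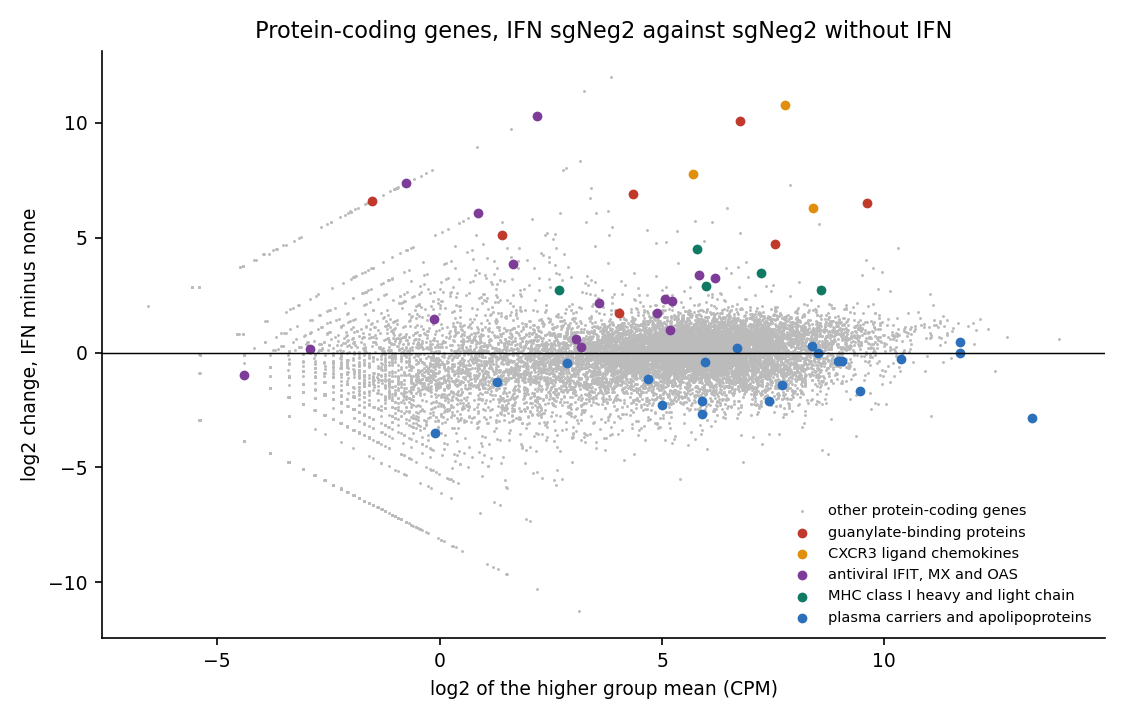
Each dot is a protein-coding gene, with the log2 of its higher group mean (CPM) on the horizontal axis and its log2 change, IFN sgNeg2 minus sgNeg2 without IFN, on the vertical axis. Colours mark 5 gene lists, of which the guanylate-binding protein and CXCR3 ligand genes lie above 0 throughout and 12 of 20 plasma carrier genes were called lower.

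No interferon gene had counts. All 10 listed genes of type I, II and III interferons, IFNG and IFNB1 among them, had 0 counts in the 4 libraries.

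Receptor and kinase genes moved little, apart from IFNGR2. Of 9 genes 2 were higher and 2 lower, no larger a share than the 31.0% and 35.2% of all genes, and 5 were not called, with a median log2 of -0.13. IFNGR2, the signalling chain of the IFN-gamma receptor, held 5.91 and 8.51 CPM with IFN, against 1.91 and 1.99 CPM without, and rose by a log2 of 1.89 ± 0.30 (SE; adjusted p = 0.0001). Both IFN libraries lay above both others, and its log2 was 1.82 against DMSO. IFNGR1, the ligand-binding chain, held 35.2 and 35.9 CPM with IFN, against 41.8 and 36.2 CPM without, and was not called (adjusted p = 0.407), while offsets for GC content, chosen after seeing the data, gave a called log2 of 0.26 (adjusted p = 0.00285). TYK2, a kinase of the type I receptor, rose by 0.66 ± 0.17 (SE; adjusted p = 0.0046), JAK1 fell by 0.54 ± 0.09 and IFNAR1, a type I receptor chain, by 0.39 ± 0.15. The call of IFNAR1 was lost when any 1 of the 4 libraries was left out (adjusted p = 0.0876 to 0.205). JAK2, the kinase bound to IFNGR2, had a log2 of -0.31 ± 0.16 (SE; adjusted p = 0.109) here and of 0.81 ± 0.09 (SE; adjusted p = 2.11e-09) against DMSO, so that its direction differed between the controls.

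STAT and IRF genes were mostly higher. Of 7 STAT genes 5 rose and 1 fell (median log2 0.71), beside 31.0% and 35.2% of all genes. STAT2, a part of the type I complex, rose to 123 and 120.1 CPM with IFN, against 53.7 and 55.6 CPM without (log2 1.15 ± 0.08). STAT5A rose by 1.06, STAT6 by 0.71 and STAT3 by 0.36. The fall was that of STAT4, with 0.561 and 0.361 CPM with IFN, against 0.905 and 1.28 CPM without (log2 -1.25), and it was 0.48 against DMSO, where it was not called. Without sgNeg2 replicate 2 or IFN sgNeg2 replicate 2 its call was lost (adjusted p = 0.0965 and 0.0932).

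Of 5 IRF genes tested 4 rose and none fell (median 0.80), beside 31.0% and 35.2% of all genes. IRF1 rose by 3.05 ± 0.11 (SE; adjusted p = 3.79e-10), and by 4.73 against DMSO, where its libraries held only 9.84, 10.1 and 10.8 CPM. IRF9, the DNA-binding part of the type I complex, held 56.1 and 57.4 CPM with IFN, against 17.9 and 17.2 CPM without (log2 1.69 ± 0.13, SE; adjusted p = 1.22e-07). IRF8, better known from myeloid cells, rose to 131 and 135 CPM with IFN, against 88.2 and 92.8 CPM without (log2 0.56 ± 0.07), and had a log2 of 1.73 against DMSO. IRF3 rose by 0.80, while IRF2, a counterpart of IRF1 that can repress its targets, had 27.3 and 29.1 CPM with IFN and 27.2 and 29.1 CPM without (adjusted p = 0.979), with overlapping groups.

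Genes of feedback were divided, with 7 of 13 higher, 3 lower and 3 not called (median 0.35, and 0.12 against DMSO). Among all genes 31.0% were higher and 35.2% lower. TRIM21, which encodes an antibody receptor and ubiquitin ligase, rose by 2.66 ± 0.14 (SE; adjusted p = 7.62e-09). USP18, which removes ISG15 from proteins and blocks type I receptor signalling, rose to 31.1 and 29.9 CPM with IFN, against 11.9 and 12.1 CPM without. SOCS1, the chief inhibitor of IFN-gamma signalling, held 11.3 and 11.3 CPM with IFN, against 8.10 and 9.23 CPM without, a log2 of 0.38 ± 0.26 (SE; adjusted p = 0.212) that did not pass the test. With GC offsets it was -0.34 (adjusted p = 0.0357). The DMSO libraries held 1.64, 1.69 and 1.80 CPM of SOCS1, which gave a log2 of 2.73 ± 0.15 (SE; adjusted p = 8.57e-16) against them. SOCS2, a feedback inhibitor of growth hormone signalling, fell by 2.45 ± 0.19 (1.31 and 1.74 CPM with IFN, against 8.05 and 8.71 CPM without), and IRF2BP2 and PIAS1 fell by 0.88 and 0.55.

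**Figure D3:**
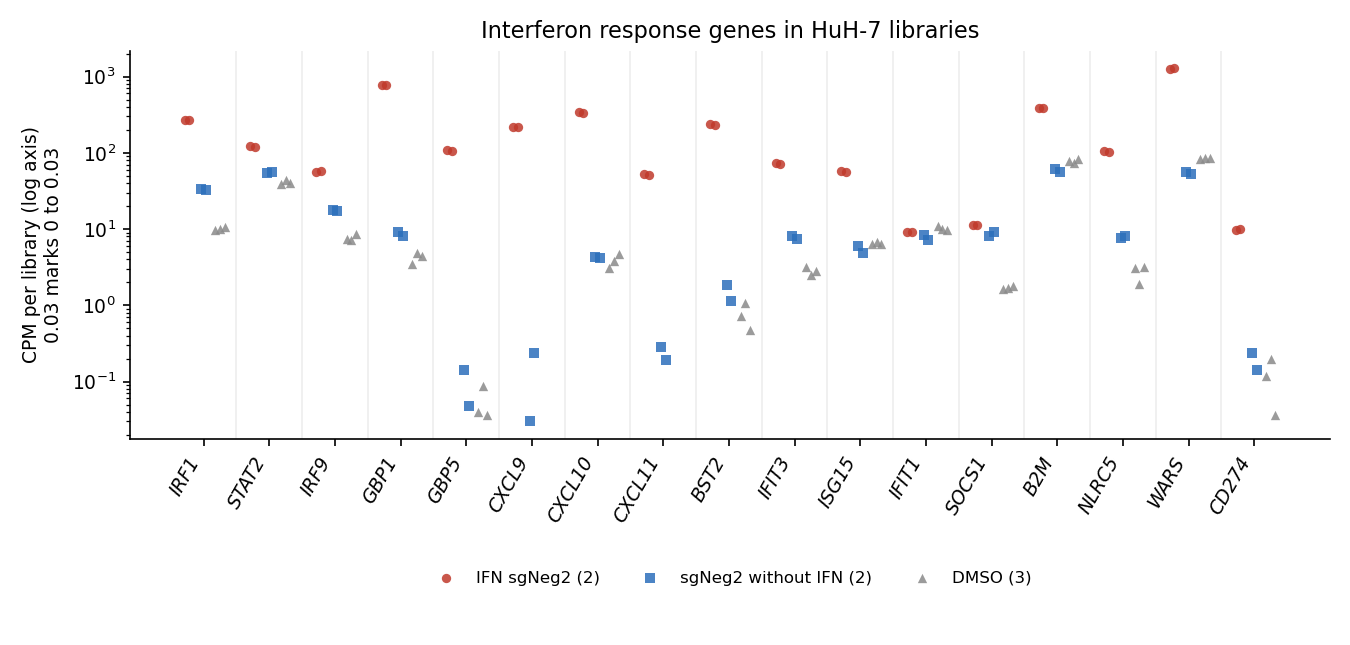
Points give CPM in each library (log axis) for 17 response genes, with IFN sgNeg2 libraries (red) left of sgNeg2 libraries without IFN (blue) and DMSO libraries (grey). Genes with no grey points are not in the DMSO files, and IFIT1 and SOCS1 are the genes where red and blue points lie close together. Points at 0.03 CPM stand for 0 to 0.03.

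The guanylate-binding protein genes, GTPases that attack intracellular parasites and bacteria, all rose. All 7 were called, 6 of them at least 4-fold higher against 2.42% of all genes, with a median log2 of 6.49 (5.13 with GBP6, which had no counts without IFN, at its bound), and all 5 tested against DMSO were higher there (median 5.50). GBP1 held 780.0 and 782 CPM with IFN, against 9.24 and 8.10 CPM without (log2 6.49 ± 0.15, SE; adjusted p = 6.16e-12). GBP2 held 187 and 188 CPM with IFN, against 7.29 and 7.01 CPM without (log2 4.71 ± 0.10). GBP5 rose by 10.09 ± 0.18 (SE; adjusted p = 7.19e-13) and GBP4 by 6.91 ± 0.22 (SE; adjusted p = 1.59e-10). GBP3 had the smallest rise, 1.74 ± 0.18, over 5.29 and 4.54 CPM without IFN. GBP7 was higher by a ratio of 36.8 (95% counting interval 12.4 to 179.9), and GBP6 at least 4.84-fold higher, a bound set by 3 counts over the group without IFN. Such bounds and intervals cover counting error only. Against DMSO GBP7 had the smallest rise of the 5 tested, a log2 of 2.06, and GBP3 had 3.78. The DMSO libraries held 0.638, 0.630 and 0.6185 CPM of GBP7.

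The 3 ligands of CXCR3, the receptor that brings activated T cells into tissue, all rose. CXCL10 rose by 6.31 ± 0.12 (SE; adjusted p = 1.36e-12) and by 6.43 against DMSO. CXCL9 rose by 10.79 ± 0.29 (SE; adjusted p = 2.24e-11), and CXCL11, at 53.3 and 51.3 CPM with IFN against 0.286 and 0.189 CPM without, by 7.76 ± 0.29 (SE; adjusted p = 4.61e-10). CXCL11 overlaps ART3, so reads of the pair may not be told apart. CXCL9 and CXCL11 are not in the DMSO files, which list only genes with at least 1 count.

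Of 23 other chemokine and cytokine genes tested 17 rose and 3 fell, beside 31.0% and 35.2% of all genes. The list median was 1.11, and 1.07 against DMSO. CSF1, a growth factor of macrophages, rose to 119 and 115 CPM with IFN, against 22.5 and 23.6 CPM without (log2 2.34). IL32 rose by 2.33 and the lymphocyte growth factor gene IL7 by 2.52. CCL20, which attracts cells through CCR6, rose to 357 and 359.5 CPM with IFN, against 113 and 116 CPM without. CCL2, the monocyte attractant, had no counts without IFN and was at least 3.44-fold higher at 0.374 and 0.127 CPM. IL1B held 0.0935 and 0.0637 CPM with IFN, against 0.762 and 0.663 CPM without, and fell by 3.13. IL18, the cytokine that induces IFN-gamma in lymphocytes, fell to 9.70 and 11.2 CPM with IFN, against 34.6 and 31.4 CPM without. TNFSF10, the death ligand TRAIL, fell by 0.77 but had a log2 of 0.51 ± 0.05 (SE; adjusted p = 1.25e-09) against DMSO.

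Antiviral genes of the IFIT, MX and OAS families rose unevenly. Of 16 tested 12 rose, 9 of them at least 4-fold, none fell and 4 were not called. Over all genes 31.0% were higher, 2.42% at least 4-fold, and 35.2% lower. The list median was 2.201, and 2.90 over 10 tested against DMSO. The family genes cover RNA binding (IFIT), GTPases that trap viral particles (MX) and enzymes that sense double-stranded RNA (OAS). IFIT3 rose to 74.6 and 71.7 CPM with IFN, against 8.19 and 7.43 CPM without (log2 3.23 ± 0.11, SE; adjusted p = 3.34e-10). ISG15, a ubiquitin-like modifier, held 57.8 and 55.7 CPM with IFN, against 5.91 and 4.92 CPM without (log2 3.39 ± 0.27, SE; adjusted p = 2.24e-07). OAS2 had no counts without IFN and was at least 64.2-fold higher, IFI44L at least 8.27-fold, and IFI27 higher by a ratio of 76.8 (95% counting interval 13.6 to 3052). The call of IFI27 was lost without sgNeg2 replicate 1 or 2 (adjusted p = 0.0841 and 0.0584).

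The 4 members that were not called are well-known interferon targets. IFIT1 held 9.13 and 9.08 CPM with IFN, against 8.48 and 7.10 CPM without (log2 0.23 ± 0.17, SE; adjusted p = 0.258), and had a log2 of -0.17 against DMSO. MX1 rose to 11.2 and 12.6 CPM with IFN, against 2.67 and 2.60 CPM without, while MX2 had 0 and 0.0425 CPM with IFN and 0.0953 and 0 CPM without. RSAD2, which encodes viperin, had 0.0935 and 0.170 CPM with IFN and 0.0476 and 0.189 CPM without (adjusted p = 0.887). OASL was not called either, at 0.631 and 1.19 CPM with IFN and 0.143 and 0.521 CPM without. IFIT5 rose by 0.97 ± 0.16 (SE; adjusted p = 0.000177). IFIT2 rose by 0.60 ± 0.18 (SE; adjusted p = 0.0109), which was lost without sgNeg2 replicate 2 or IFN sgNeg2 replicate 2 (adjusted p = 0.111 and 0.0986).

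Among 43 other antiviral genes tested 26 rose, 8 fell and 9 were not called (median 0.90). Over all genes 31.0% were higher and 35.2% lower. BST2 rose to 239 and 228 CPM with IFN, against 1.86 and 1.14 CPM without (log2 7.28 ± 0.19, SE; adjusted p = 2.04e-11), and TRIM22, a ubiquitin ligase, to 14.6 and 14.4 CPM with IFN, against 0 counts without, at least 203-fold higher. The DMSO libraries held 0.200, 0.217 and 0.255 CPM of TRIM22, which gave a log2 of 6.00 ± 0.19 (SE; adjusted p = 7.27e-22) against them. TRIM22 overlaps its paralog TRIM5 and OR56B1 in the annotation. LGALS3BP, a secreted glycoprotein gene, held 368 and 367 CPM with IFN, against 8.10 and 7.10 CPM without. XAF1, a pro-apoptotic factor gene, was higher by a ratio of 378 (95% counting interval 67.6 to 14930). EIF2AK2, the RNA-activated kinase PKR, was among the falls and held 45.1 and 42.6 CPM with IFN, against 86.8 and 90.6 CPM without. SAMD9, a restriction factor gene, fell by 1.57, but had 0.28 against DMSO (not called). SLFN5 fell by 1.51 here and had -1.74 against DMSO. The log2 of EIF2AK2 was -0.26 against DMSO.

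Genes of ubiquitin-like modification and ADP-ribosylation were higher in 11 of 13 cases and lower in 2, beside 31.0% and 35.2% of all genes. The list median was 1.34, and 1.74 against DMSO. UBE2L6, the conjugating enzyme of ISG15, rose to 868 and 859 CPM with IFN, against 63.4 and 71.0 CPM without (log2 3.68 ± 0.13, SE; adjusted p = 3.03e-10). UBD, a ubiquitin-like protein also called FAT10, rose by 3.43 and PARP10 by 3.08. PARP9 rose by 2.31, and PARP14 rose to 572 and 568 CPM with IFN, against 214 and 222 CPM without. RNF213, a giant ubiquitin ligase, fell by 1.33 ± 0.07, but its log2 against DMSO was 0.10. HERC5, the ligase of ISG15, fell by 0.61 and had -0.20 against DMSO, which was not called there. Of 12 nucleic acid sensor genes 6 rose and 2 fell (median 0.50), beside 31.0% and 35.2% of all genes. IFIH1, the RNA sensor MDA5, rose by 1.68 ± 0.20 (SE; adjusted p = 9.85e-06) and had a log2 of 3.73 against DMSO. Its relative DDX58, the sensor RIG-I, fell by 0.44 (adjusted p = 0.028), a call that was lost with any 1 of the 4 libraries left out (adjusted p = 0.053 to 0.17) and against DMSO (log2 -0.04, adjusted p = 0.784). MAVS, the adaptor of both, fell to 143 and 148 CPM with IFN, against 292 and 305 CPM without. IKBKE rose by 0.87.

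Genes of class I antigen presentation rose. All 5 class I chain genes tested were higher (median 2.88, and 4.13 against DMSO), beside 31.0% of all genes. HLA-F and HLA-G had 0 counts. B2M, the light chain, held 385 and 382 CPM with IFN, against 61.0 and 55.9 CPM without (log2 2.71 ± 0.15, SE; adjusted p = 1.24e-08). HLA-C, a heavy chain gene, held 148 and 149.5 CPM with IFN, against 13.6 and 13.1 CPM without. HLA-B rose by 4.51 ± 0.24 (SE; adjusted p = 9.19e-09) and HLA-E by 2.71. These levels are uncertain, because the 149 genes around the MHC on chromosome 6 had a median of only 0.313 CPM with IFN and 0.190 CPM without, and 45 had no counts. The other 785 genes of chromosome 6 had medians of 11.5 CPM with IFN and 14.2 CPM without.

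Of 14 genes that supply peptides to class I molecules 13 rose and none fell, beside 31.0% and 35.2% of all genes. The list median was 2.34, and 2.27 over the 12 tested against DMSO. NLRC5, the transactivator of class I genes, rose to 105 and 103 CPM with IFN, against 7.62 and 8.05 CPM without (log2 3.73 ± 0.19, SE; adjusted p = 4.79e-09). PSMB10, an immunoproteasome subunit encoded outside the MHC region, rose to 95.4 and 92.3 CPM with IFN, against 9.15 and 7.76 CPM without. TAP1, a peptide transporter, was higher by a ratio of 58.9 (95% counting interval 19.99 to 287) and the immunoproteasome subunit PSMB9 by 55.3 (95% counting interval 15.1 to 459), both within the poorly counted region. PSME1 and PSME2, the proteasome activator PA28, rose by 1.84 and 2.83. The 4 constitutive counterparts PSMB5, PSMB6, PSMB7 and PSME3 were higher too, by 1.42, 1.55, 1.00 and 1.23, with a median of 1.33 here and 0.84 against DMSO.

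Most class II genes had few or no counts. Of 18 genes 8 had no counts in any of the 4 libraries, among them HLA-DRA, HLA-DPA1 and HLA-DQA1. These HLA genes lie in the poorly counted MHC region, where 45 of 149 genes had no counts. Their 0 counts therefore do not show that they were silent. Of the 9 tested 5 rose and none fell (median 0.41), beside 31.0% and 35.2% of all genes. CIITA, the master regulator of class II genes, had 0.327 and 0.0425 CPM with IFN, that is 14 and 2 counts, against 0 and 0 CPM without, and was at least 2.50-fold higher. Its call was lost without sgNeg2 replicate 1 or 2 (adjusted p = 0.116 in each case). The endosomal genes CTSS, IFI30 and LGMN, which act on antigens before loading, rose by 2.23, 2.13 and 1.74, with IFI30 at 301 and 288 CPM with IFN, against 67.1 and 67.3 CPM without.

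Among 17 checkpoint and NK cell ligand genes tested 10 rose and 1 fell (median 0.85), beside 31.0% and 35.2% of all genes. CD274 rose to 9.72 and 9.89 CPM with IFN, against 0.238 and 0.142 CPM without (log2 5.66 ± 0.30, SE; adjusted p = 7.35e-09), and its log2 was 6.41 against DMSO. ICAM1, an adhesion ligand of T cells, rose to 1138 and 1110 CPM with IFN, against 180.1 and 171 CPM without. The fall was that of C10orf54, which encodes VISTA, by 1.68 here and with -0.16 against DMSO (not called). IDO1, which degrades tryptophan, had 1.68 and 1.89 CPM with IFN and no counts without, at least 25.1-fold higher.

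Of 14 genes of tryptophan use and other metabolic effectors 10 rose and 1 fell, beside 31.0% and 35.2% of all genes. The list median was 2.11, and 1.95 over the 10 tested against DMSO. WARS, the tryptophanyl-tRNA synthetase, rose to 1272 and 1279 CPM with IFN, against 56.5 and 52.0 CPM without (log2 4.56 ± 0.08, SE; adjusted p = 7.19e-13). LAP3, an aminopeptidase, rose to 920.5 and 926 CPM with IFN, against 131 and 139 CPM without. Apolipoprotein L genes rose, APOL4 by 6.07, APOL1 by 5.72, APOL3 by 4.14 and APOL6 by 1.69. APOL6 held 195 and 206 CPM with IFN, against 63.1 and 61.7 CPM without.

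Of 20 cell death genes 11 rose and 3 fell (median 0.52), beside 31.0% and 35.2% of all genes. CASP1, the inflammasome protease, rose to 27.5 and 30.4 CPM with IFN, against 2.29 and 3.46 CPM without (log2 3.33 ± 0.19, SE; adjusted p = 1.42e-08), the death receptor gene FAS rose by 2.37 and the BCL2 family gene PMAIP1 by 1.85. GSDMD, the pore former of pyroptosis, had 1.54 and 19.3 CPM in the 2 IFN libraries and 3.05 and 0.521 CPM in those without, so that the groups overlapped. Without IFN replicate 1 it was called (log2 3.49, adjusted p = 0.0319). The survival genes BCL2L1 and CFLAR fell by 0.88 and 0.65, but BCL2L1 had 0.51 against DMSO and CFLAR was not called there (adjusted p = 0.975).

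**Figure D4:**
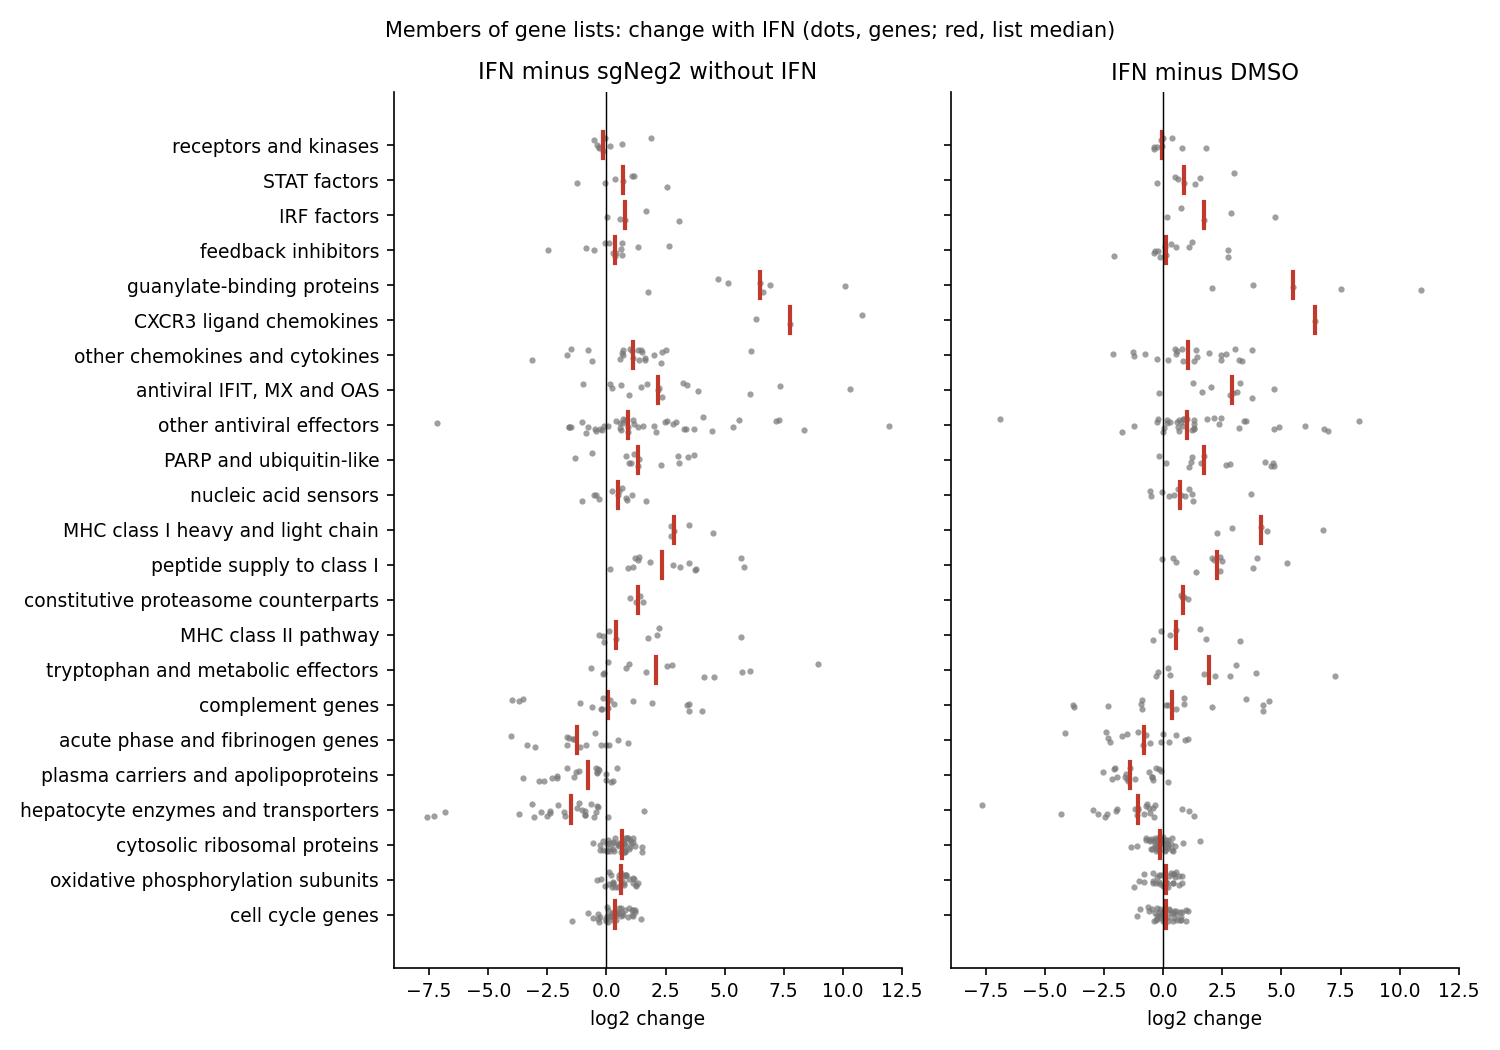
Dots are genes, rows are gene lists and the horizontal axis is the log2 change, for IFN sgNeg2 minus sgNeg2 without IFN (left panel) and IFN sgNeg2 minus DMSO (right panel), with list medians in red. Guanylate-binding protein genes have medians of 6.49 (left) and 5.50 (right), cytosolic ribosomal protein genes 0.67 and -0.15.

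Of 17 complement genes tested 6 rose and 5 fell (median 0.05), and 9 of 16 were higher and 5 lower against DMSO. The shares against sgNeg2 libraries are near the 31.0% higher and 35.2% lower of all genes. SERPING1, the C1 inhibitor, rose to 776 and 768 CPM with IFN, against 45.8 and 47.9 CPM without (log2 4.04 ± 0.10, SE; adjusted p = 1.73e-11). The proteases of the C1 complex rose with it, C1S to 999 and 982 CPM with IFN, against 89.6 and 86.5 CPM without, and C1R by 3.40 ± 0.11 (SE; adjusted p = 1.98e-10). MASP2, a lectin pathway protease, was higher by a ratio of 12.2 (95% counting interval 3.21 to 103), but had a log2 of -0.90 against DMSO. The lectin gene MBL2 fell by 3.68, and the terminal pathway genes C6 and C8B fell by 3.99 and 3.55. C8B held 1.28 and 1.23 CPM with IFN, against 15.2 and 14.4 CPM without. CFB, factor B, had 10.7 and 1.19 CPM in the 2 IFN libraries and 2.10 and 3.41 CPM without, and was not called. Its log2 was -1.15 without IFN replicate 1 (adjusted p = 0.0297) and 2.00 without IFN replicate 2 (adjusted p = 0.000386), opposite in sign.

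Acute phase and fibrinogen genes were mostly lower, with 1 of 16 higher and 10 lower, beside 31.0% and 35.2% of all genes. The list median was -1.26, and -0.80 against DMSO. LBP, the lipopolysaccharide-binding protein gene, fell to 3.11 and 2.78 CPM with IFN, against 49.5 and 47.2 CPM without, and 14.0, 13.2 and 14.5 CPM with DMSO. HP, the haptoglobin gene, fell to 1.92 and 0.488 CPM with IFN, against 10.9 and 13.3 CPM without, and SAA4 fell by 3.03 but had -0.01 against DMSO. The fibrinogen chain genes FGA, FGB and FGG fell by 1.67, 1.39 and 0.88, with FGA at 89.5 and 85.7 CPM with IFN, against 276 and 283 CPM without, and at 448, 433 and 445 CPM with DMSO. SAA1, a main acute phase reactant, fell by 1.41 but had a log2 of 1.03 ± 0.09 (SE; adjusted p = 3.58e-11) against DMSO. CP, the ceruloplasmin gene, was the rise, by 0.91 ± 0.17 (SE; adjusted p = 0.000376), and by 0.90 against DMSO.

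Plasma carrier and apolipoprotein genes were lower in 12 of 20 cases, 5 of them at least 4-fold, and higher in 1 (median -0.79). Among all genes 35.2% were lower and 7.43% at least 4-fold lower. The median was -1.41 against DMSO, where 17 of 19 were lower, beside 36.9% of all genes. APOB, the protein of very low density lipoprotein, fell to 1405 and 1411 CPM with IFN, against 10190 and 10330 CPM without, and 5460, 5420 and 5479 CPM with DMSO. It fell by 2.87 ± 0.15 on the log2 scale. APOA1, the protein of high density lipoprotein, fell to 224 and 214 CPM with IFN, against 704 and 702 CPM without (log2 -1.68). APOC3 fell by 2.66, SERPINC1, the antithrombin gene, by 2.29, and TTR, transthyretin, by 2.10. ALB was not called (log2 -0.01 ± 0.11) nor was AFP, the fetal counterpart of albumin (log2 -0.03 ± 0.10), whereas both were lower than in the DMSO libraries, with log2 values of -0.62 and -1.20. With GC offsets both were called higher than in sgNeg2 libraries without IFN, by 0.33 and 0.46. TF, the transferrin gene, rose by 0.45 here and had -0.46 against DMSO.

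**Figure D5:**
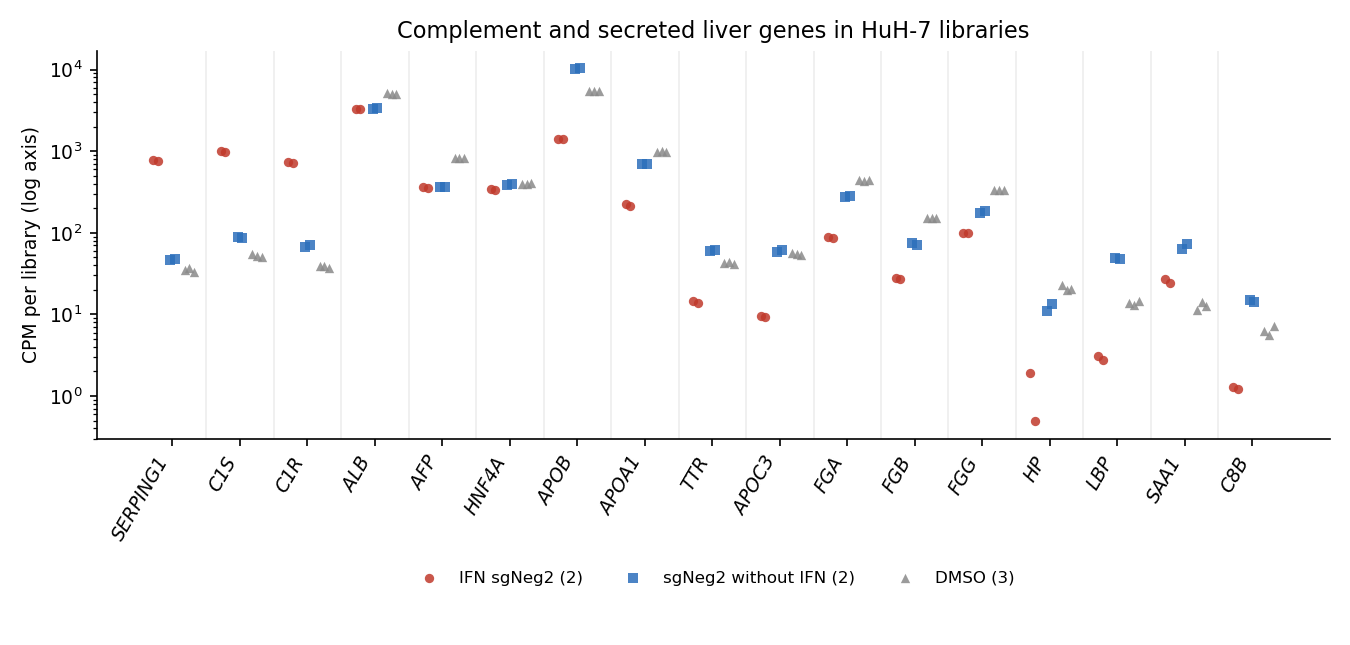
Points give CPM in each library (log axis) for 17 genes (complement genes, secreted liver proteins and HNF4A), with IFN sgNeg2 libraries (red) left of sgNeg2 libraries without IFN (blue) and DMSO libraries (grey). Red points lie above both other colours for SERPING1, C1S and C1R and below them for APOB, APOA1, the fibrinogen genes, HP and LBP, while ALB overlaps between red and blue.

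Hepatocyte transcription factor genes were lower in 9 of 16 cases and higher in 2 (median -0.56, and -0.35 against DMSO). Over all genes 35.2% were lower and 31.0% higher. HNF4A fell by 0.22 ± 0.07 (adjusted p = 0.0154), which was lost with any 1 of the 4 libraries left out (adjusted p = 0.0531 to 0.215). CEBPA, a factor of liver metabolism genes, fell to 244 and 237 CPM with IFN, against 408 and 415 CPM without, and FOXA1 fell by 0.99. ONECUT1, also called HNF6, fell by 2.54 and had a log2 of -0.41 against DMSO. PPARA, the fatty acid sensor, fell by 1.49, and NR1I2, the xenobiotic sensor PXR, fell by 2.47. NR1I3, the sensor CAR, rose by 4.33 here and had 0.62 against DMSO.

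Hepatocyte enzyme and transporter genes were lower in 20 of 26 cases, 11 of them at least 4-fold, and higher in 1. Over all genes 35.2% were lower, 7.43% at least 4-fold, and 31.0% higher. The list median was -1.49, and -1.05 over the 23 tested against DMSO. G6PC, the last step of glucose release, had 0 and 0.0425 CPM with IFN, against 3.57 and 4.59 CPM without, a ratio of 0.00545 (95% counting interval 0.000654 to 0.0200). PCK1, the entry step of gluconeogenesis, had no counts with IFN, against 0.572 and 0.805 CPM without, at least 20.6-fold lower. The bilirubin and drug exporter gene ABCC2 fell by 1.75, with 20.4 and 20.6 CPM with IFN, against 68.9 and 68.7 CPM without. GSTA1, a glutathione transferase gene, fell to 17.6 and 18.6 CPM with IFN, against 96.4 and 90.5 CPM without, and 95.7, 99.4 and 90.4 CPM with DMSO. CYP3A5, a drug-metabolising enzyme gene, fell by 3.69, but had -0.39 against DMSO (not called), and ABCB11, the bile salt export pump, rose by 1.60. The call of ABCB11 was lost without sgNeg2 replicate 1, sgNeg2 replicate 2 or IFN sgNeg2 replicate 2 (adjusted p = 0.111, 0.17 and 0.416) and under the replicate block (adjusted p = 0.0532).

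Genes of general cell functions were more often higher than lower against the sgNeg2 libraries, with medians nearer 0 against DMSO. Among all genes 31.0% were higher and 35.2% lower, and 37.6% and 36.9% against DMSO. Of 46 cytosolic ribosomal protein genes 31 were higher and 2 lower (median 0.67), and 17 were higher and 25 lower against DMSO (median -0.15). Of 30 oxidative phosphorylation subunit genes 24 were higher and 1 lower (median 0.62), and 16 were higher and 13 lower against DMSO (median 0.10). Of 21 glycolysis and hypoxia genes 14 were higher and 3 lower (median 0.81), and 11 of 20 were higher and 6 lower against DMSO (median 0.21). Of 40 cell cycle genes 23 were higher and 7 lower (median 0.36), and 20 were higher and 15 lower against DMSO (median 0.12). Of 20 cholesterol synthesis genes 9 were higher and 5 lower (median 0.27), and 8 were higher and 10 lower against DMSO (median -0.03). The part of library kind and of GC content in these values was not tested.

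Of 24 genes of ATF4 and the unfolded protein response 15 rose and 4 fell (median 0.99), beside 31.0% and 35.2% of all genes. Against DMSO 18 were higher and 6 lower (median 0.60), beside 37.6% and 36.9% of all genes. SDF2L1, an endoplasmic reticulum stress gene, rose by 2.83, and HSPA5, the chaperone BiP, to 1745 and 1740 CPM with IFN, against 511 and 517 CPM without, with 1109, 1114 and 1106 CPM in DMSO. CHAC1, an ATF4 target, rose by 1.88. Of 14 NF-kappaB genes 9 rose and 4 fell (median 0.80), beside 31.0% and 35.2% of all genes. The log2 was 1.28 for NFKB2, 0.94 for NFKB1 and -1.87 for REL. Against DMSO 12 of the NF-kappaB genes were higher and 1 lower (median 0.82), beside 37.6% and 36.9% of all genes. Of 15 immediate early genes 5 rose and 7 fell (median -0.34), beside 31.0% and 35.2% of all genes. Against DMSO the balance was the other way, with 9 of 14 higher and 2 lower (median 0.63). MYC, a transcription factor of cell growth, rose to 163 and 158 CPM with IFN, against 21.2 and 21.9 CPM without and 23.9, 23.6 and 23.7 CPM with DMSO (log2 2.90 ± 0.10, SE; adjusted p = 3.03e-10). FOSL1 rose by 3.20, and FOS fell by 3.28. Of 17 genes of cell cycle inhibitors and p53 targets 5 rose and 8 fell (median -0.27), and 7 were higher and 7 lower against DMSO (median 0.17). The shares over all genes were 31.0% and 35.2% here, and 37.6% and 36.9% against DMSO. MDM2, the ubiquitin ligase of p53, fell by 1.22.

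DOT1L, the target of the edited cells, is intact in all 4 libraries by their labels and held 107 and 107 CPM with IFN, against 83.5 and 81.2 CPM without (log2 0.38 ± 0.19, SE; adjusted p = 0.086), which did not pass the test. Of 11 genes of DOT1L and its partners 1 rose and 7 fell (median -0.63, and -0.15 against DMSO). The shares over all genes were 31.0% and 35.2%. MLLT1, a YEATS domain partner, rose by 0.99, and AFF4, KMT2A and AFF1, of the elongation and MLL complexes, fell by 1.30, 1.23 and 1.18.

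The genes with the largest rises included known interferon targets. They were taken among called genes with at least 5 CPM in 1 group and no overlap of libraries. In order of the fitted log2 they were TRIM22, SMTNL1, CXCL9, GBP5, XAF1, IDI2, GAPDHS, CXCL11, BST2, SLC18A2, GBP4 and CFAP126. TRIM22 and SMTNL1 had no counts without IFN, so their place in this order is not settled. Their bounds, log2 values of at least 7.665 and 7.069, lie below the values of CXCL9 (10.79) and GBP5 (10.09). SMTNL1, a smoothelin-like muscle protein gene, held 9.46 and 9.66 CPM with IFN, 0 counts without and 0.160, 0.391 and 0.200 CPM with DMSO, and was at least 134-fold higher. IDI2, an isomerase gene of isoprenoid synthesis, held 6.40 and 7.90 CPM with IFN, against 0 and 0.0473 CPM without, but 7.54, 6.17 and 6.22 CPM with DMSO. SLC18A2, a vesicular monoamine transporter gene, held 11.2 and 9.91 CPM with IFN, against 0.143 and 0 CPM without and 23.0, 21.9 and 22.2 CPM with DMSO, so that its log2 against DMSO was -1.08. CFAP126, a cilium gene, had a log2 of 6.71 here and of -0.56 against DMSO. GAPDHS, the sperm form of a glycolytic enzyme, was higher by a ratio of 285 (95% counting interval 51.0 to 11280) and had a log2 of 1.19 against DMSO. IDI2, SLC18A2 and CFAP126 overlap another protein-coding gene each. Besides TRIM22, SMTNL1, OAS2 and IDO1, the phospholipase gene PLA2G2A was the only protein-coding gene with no counts without IFN and at least 1 CPM with it, at 2.94 and 3.10 CPM, at least 42.5-fold higher.

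The largest falls by the same rule were those of CIDEB, FMO1, SLC3A1, EBLN2, COX20, EID3, SCO2, ZNF460, DMBT1, TTN, EXPH5 and TM4SF20. CIDEB, which acts in lipoprotein assembly in hepatocytes, had 0 counts with IFN and 9.67 and 7.86 CPM without, at least 263-fold lower, and overlaps other protein-coding genes. It is not listed in the DMSO files either, which hold only genes with at least 1 count, so no fall against DMSO can be given for it. COX20, an assembly factor of cytochrome oxidase, held 1.19 and 0.7004 CPM with IFN, against 40.2 and 44.0 CPM without, but 1.10, 0.847 and 0.782 CPM with DMSO. ZNF460, a zinc finger gene, held 4.298 and 4.12 CPM with IFN, against 114 and 112 CPM without, and 3.61, 5.21 and 4.37 CPM with DMSO. EID3 and SCO2 were likewise near 0 in the DMSO libraries, at up to 0.0868 CPM.

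Falls that also lay below all 3 DMSO libraries included FMO1, SLC3A1, EBLN2, DMBT1, TTN, EXPH5, TM4SF20, RBMS3, ZBTB20, RBP2 and SLC22A7. FMO1, a drug-oxidising enzyme, held 0.140 and 0.0849 CPM with IFN, against 6.81 and 5.54 CPM without and 1.85, 2.00 and 2.09 CPM with DMSO. RBP2, a cellular retinol-binding protein gene, fell to 3.74 and 3.27 CPM with IFN, against 60.8 and 67.4 CPM without and 42.7, 40.7 and 40.4 CPM with DMSO (log2 -4.19 and -3.56). ZBTB20, a repressor of fetal liver genes such as AFP, fell to 20.02 and 21.4 CPM with IFN, against 381 and 397 CPM without and 58.7, 63.2 and 60.4 CPM with DMSO. SLC22A7, an organic anion transporter gene, fell by 4.13 here and had a log2 of -3.17 against DMSO. The long transcript TTN, which encodes titin, fell by 4.42 against the sgNeg2 libraries and had -0.96 against DMSO.

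Markers of other cell types were measured beside these genes, and their part in the results was not tested. Of 20 leukocyte markers 6 had no counts in the 4 libraries, PTPRC, MS4A1, CD2, NKG7, ITGAX and FCGR3A, and of 11 tested 3 rose and 1 fell, against 31.0% and 35.2% of all genes. Their summed level was 253 and 246 CPM with IFN, against 115 and 120.0 CPM without, most of it from CD68 and LYZ. CD68, a lysosomal protein gene of macrophages, held 157 and 153 CPM with IFN, against 54.5 and 58.4 CPM without, and LYZ, the lysozyme gene, 85.9 and 82.5 CPM with IFN, against 49.0 and 49.8 CPM without and 88.3, 85.7 and 89.1 CPM with DMSO. Of 7 fibroblast and stellate markers tested 0 rose and 5 fell, with sums of 82.0 and 87.8 CPM with IFN, against 150 and 152 CPM without. COL1A2, a collagen gene, had all of its 25 counts in sgNeg2 replicate 2, and its call was lost without that library (adjusted p = 1). Of 4 endothelial markers tested 1 rose and 2 fell, with sums of 3.69 and 4.61 CPM with IFN, against 10.0 and 10.8 CPM without, and KDR and EMCN had no counts.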

How the data were processed

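The authors deposited counts per gene, 1 file per library. The submitters' processing notes name Trim Galore, HISAT2 2.2.1, SAMtools 1.9 and DESeq2 1.36.0, and hg38. The sources used here name no counting tool, strand setting or gene models, so counts of overlapping genes are uncertain. Total RNA went into libraries made with a VAHTS Universal V6 kit, per the labels' protocols.

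The members and gene lists were chosen with earlier results of these data known. Of 26457 symbols 25376 were matched to a gene class, 1536 of them through an older symbol, and 18949 protein-coding genes were kept, without 70 histone genes. Counts of 12 HuH-7 guide libraries were fitted in 4 groups (genotype by IFN) in R 4.3.3 with edgeR 4.0.16: filterByExpr (minimum count 10, minimum total 15), TMM scaling and robust quasi-likelihood F tests, with Benjamini-Hochberg adjustment over 13954 genes. The SE is taken from the F statistic. IFN and DMSO libraries were fitted apart over 13199 genes. The DMSO files list only 15899 symbols, each with at least 1 count. CPM of DMSO libraries were scaled to those with IFN by TMM, and a level across the sets rests on that scaling. The fit was tested on simulated data.

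Genes were named by a rule: the 4 markers, the 3 largest called rises and 3 largest called falls of a list, members that carry a statement, and the 12 largest changes in each direction. Some genes the rule would name are given only in counts or are not reported here, and further members were named after their values were seen. HLA, TRIM5 and TRIM22, IFIT, SAA and APOL genes have close paralogs and their counts are uncertain to that extent. Same-numbered libraries did not deviate together (correlation -0.0141 over 10666 genes), so numbers were not taken to pair them. The 2 IFN libraries differed beyond sampling noise (chi-square per gene 6.46), as did the 2 without IFN (3.02). Each library was entered as a sample, but these values cannot tell separate cultures from technical replicates. Alternatives were RLE scaling, DESeq2 1.42.0, no filter, all genes kept, guides as groups, 4 libraries only, a replicate block, thinned IFN libraries, a 2-fold threshold, DMSO as control and each library left out. GC offsets were added after seeing the data. Thinning put the IFN libraries at the depth of the shallower sgNeg2 library without IFN.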

Additional observations from a re-analysis of the deposited data

How the results depend on the processing

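Counts of called genes stayed within 1.5 times of 4331 higher and 4916 lower under every setting run but 1. Testing against a change of at least 2-fold left 777 higher and 1609 lower, since that test asks for more, and 39 of 182 named genes lost their call. Leaving out 1 of the 4 sgNeg2 libraries gave 3646 to 4060 higher and 4017 to 4265 lower. With a replicate block the counts were 4242 and 4789, and of 182 genes named 1, ABCB11, lost its call (adjusted p = 0.0532), although the numbers were not taken to pair the libraries. RLE scaling, DESeq2 and no filter changed no call and no direction among these 182. With all genes kept 3 calls were lost and 1 gained, and the counts were 5244 and 4115. Fitting guides as groups lost 1 and gained 3, the 4 sgNeg2 libraries alone lost 1 and gained 4 of 176, thinned IFN libraries lost 3 of 180, and DMSO as control lost 8 and gained 7 of 159.

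Directions differed for 13 genes against DMSO. The log2 change there was 0.81 for JAK2, 0.48 for STAT4, 0.51 for TNFSF10, 0.28 for SAMD9, 0.10 for RNF213, 0.51 for BCL2L1, 1.03 for SAA1, 0.056 for COX20, -0.90 for MASP2, -0.46 for TF, -0.056 for LYZ, -1.08 for SLC18A2 and -0.56 for CFAP126. With GC offsets, chosen after seeing the data, it was 0.46 for AFP, 0.33 for ALB, 0.26 for IFNGR1 and -0.34 for SOCS1, 4 calls were lost and 1 gained. CFB ran from -1.15 to 2.00 with 1 library left out. The cause was not tested in any of these cases. Depth limits genes with a few counts without IFN, whose folds are bounds or ratios with counting intervals.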
